A study of Mus musculus with 44 samples.

Results

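The ubiquitin-specific peptidases (USPs) of the table were taken as every row whose symbol is Usp followed by a digit, which gave 38 of 8203 genes. The rule uses symbols and not levels, but it was set with earlier results of these data known. The study had already listed Usp22 and Usp19 among its top genes for extinction in these mice. Ribosome-associated RNA was measured by TRAP-seq in 44 adult Crh-TRAP mice, each of which is a sample of amygdala punches. All of these mice carry a transgene with Cre under the Crh promoter and a Cre-dependent eGFP-L10a, a tagged ribosomal protein, so tagged ribosomes depend on where that promoter is or was active. Tone alone (TA) mice (n = 16, 10 males and 6 females) heard 5 tones of 30 s at 6000 Hz with the shock generator off. Fear conditioning (FC) mice (n = 12, 6 of each sex) received a 0.65 mA shock with each of the 5 tones. Extinction (EXT) mice (n = 16, 10 males and 6 females) were conditioned like FC mice and on the next day heard 30 tones without shock in a new context, so they were also killed later after training than TA and FC mice.

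Ubiquitin is a small protein that is joined to other proteins as a single unit or as chains, and chains of some kinds send the marked protein to the proteasome. The USPs are the most numerous family of deubiquitinases, the enzymes that cut ubiquitin off again. Members act on histones, on proteins being sorted at endosomes, on proteins bound for the proteasome and on regulators of the cell cycle and of DNA repair, and in neurons the balance of ubiquitin addition and removal takes part in synaptic plasticity.

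The values are reads of a gene scaled to the library size on a log2 scale (log2 cpm), with an offset of 0.5 reads, and a whole number of reads was recovered from each of them. The 38 members had between 75 and 8455 reads in every library, and effective library sizes were 12802113 to 20440351 reads. The labels give 5 batches. Batches 3 and 4 hold 6 EXT mice and no other group, so that for these mice the effect of EXT and that of the batch cannot be told apart. EXT could be set against TA inside batches 1, 2 and 5. The defining markers of Crh and GABAergic neurons were present (11 of 12 listed genes), while 0 of 5 microglial and 0 of 3 endothelial markers are in the table. Summed cpm of those 11 genes was 3031 to 7382 in TA mice (median 5143), 3145 to 8055 in FC mice (median 4742) and 1457 to 7770 in EXT mice (median 3961), with a median of 1931 in the EXT mice of batches 3 and 4 against 4875 in the other EXT mice. Of the 11, 5 were lower in EXT vs. TA at an FDR-adjusted p under 0.05 in limma (all genes 11%). Summed cpm of 4 RNA-quality genes (Malat1, mt-Co1, mt-Nd1 and mt-Cytb) had medians of 427 in TA mice, 545 in FC mice and 1683 in EXT mice, and of 15860 in batches 3 and 4 against 413 in the other EXT mice. All 4 were higher in EXT vs. TA at that threshold (all genes 10.4%). Markers of oligodendrocytes (6 of 7 in the table), astrocytes (6 of 6), glutamatergic neurons (2 of 6) and choroid plexus (5 of 8) had 0 FDR-significant genes. All of these calls are from the fit with batch as a number, and with batches as categories 2 of all 8203 genes passed that threshold. Summed cpm of these 4 lists of markers had medians of 6914 in the EXT mice of batches 3 and 4 against 2884 in the other EXT mice for oligodendrocytes, 1592 against 1170 for astrocytes, 202 against 89.8 for glutamatergic neurons and 1104 against 3589 for choroid plexus. Between TA and EXT mice these medians were 3286 and 3697, 1026 and 1333, 78.7 and 126.5, and 6587 and 2651. The part of these lists in the results below was not tested. Fewer cells of a type and less RNA per cell cannot be told apart in these samples.

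Levels between members were compared as cpm per kilobase of exon, on a linear scale, over all 44 mice. Usp22, the catalytic subunit of the deubiquitinase module of the SAGA coactivator, which takes ubiquitin off histones, stood highest with a median of 62.5 (lowest mouse 21.6, highest 85.6). Usp11, an X-linked enzyme with ties to DNA repair, had a median of 42.2 (17.95 to 83.95), and Usp5, which takes apart free ubiquitin chains, a median of 41.5 (17.3 to 76.5). Usp14, a deubiquitinase that docks on the proteasome, followed at 25.2 (12.3 to 38.3), and Usp21, which acts on histone H2A, at 23.4 (12.6 to 31.3). The ranges of neighbours in this order overlapped widely. Genes were not compared within each mouse, so the order among Usp11 and Usp5, or Usp14 and Usp21, was not tested. Among the 8005 genes with a single gene model, Usp22 stood at percentile 86.8, Usp11 at 80.2 and Usp5 at 79.9.

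**Figure D1:**
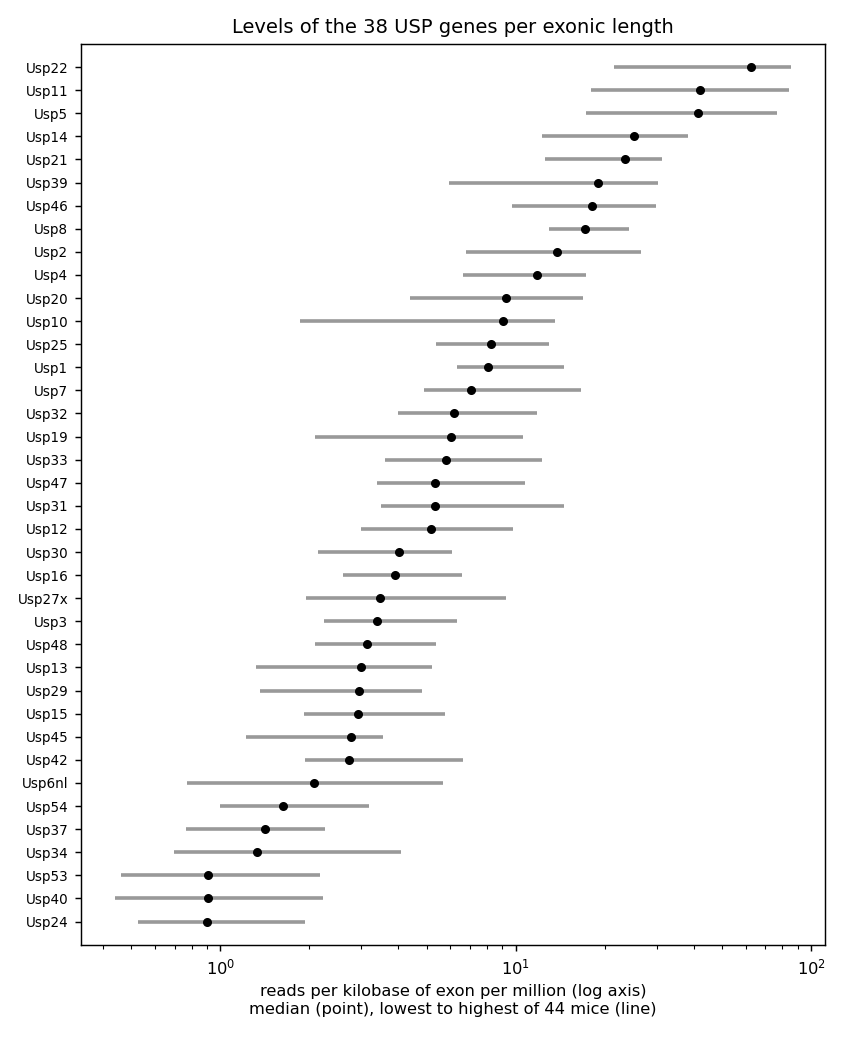
Levels of the 38 USP genes in cpm per kilobase of exon (log axis), ordered by median, with points for the median and lines from the lowest to the highest of 44 mice. Usp22 stands highest with a median of 62.5 and Usp24, Usp40 and Usp53 lowest with medians of 0.899, 0.906 and 0.908.

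At the other end were Usp24, a very large enzyme, with a median of 0.899 (0.528 to 1.94), Usp40 with 0.906 (0.439 to 2.23), and Usp53, which is known from cell junctions, with 0.908 (0.461 to 2.18). Their ranges overlapped, and the order of these genes within each mouse was not tested. Every row of the table had passed the authors' cpm minimum in all samples, so USPs below it are not covered. Usp6nl, listed by the rule, is a GTPase-activating protein without a peptidase domain, and had a median of 2.07 (0.769 to 5.65). Usp22 and Usp27x are closely related genes, and how reads that match both were counted is not given in the sources used here. Exons of 7 members overlap exons of a gene on the opposite strand that is also in the table (Usp14 with Thoc1, Usp16 with Cct8, Usp30 with Svop, Usp34 with Ahsa2, Usp37 with Cnot9, Usp40 with Dgkd and Usp45 with Tstd3). Whether the counting used strand is not given in the sources used here, so these members are uncertain to that extent. With genes outside the table included, exons of 15 members overlap those of another gene. Among these are overlaps on the same strand, of Usp10 with Gm20388, Usp15 with Gm27920 and Usp29 with Gm27675, which strand would not separate.

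The study asked which genes change with extinction learning. In EXT vs. TA over both sexes, fitted with limma with batch as a number and sex as a factor, 8 of the 38 members were lower after EXT at an FDR-adjusted p under 0.05 (21.1%), against 11% of all genes. Another 2 members were higher (5.26%, against 10.4% of all genes) and 28 did not pass. At an unadjusted p under 0.05 there were 9 lower members (23.7%, against 18.7% of all genes) and 7 higher ones (18.4%, against 19.1%). The 8 lower members were Usp22, Usp19, Usp39, Usp14, Usp5, Usp10, Usp29 and Usp11, and the 2 higher ones were Usp32 and Usp34. Usp22 and Usp19 were known beforehand from the study's list of top genes, so the share of lower members is not independent of that list. The median log2 fold change of the 38 members was -0.01, and that of all genes 0.01. The calls depended on how batch was coded. With batches as categories, 0 members were FDR-significant in limma (2 of all genes), while 13 members were lower (34.2%, against 11% of all genes) and 1 was higher (2.63%, against 10.2%) at an unadjusted p under 0.05. In that fit the median of the members was -0.12, with 27 of 38 below 0, and the median of all genes 0.01.

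**Figure D2:**
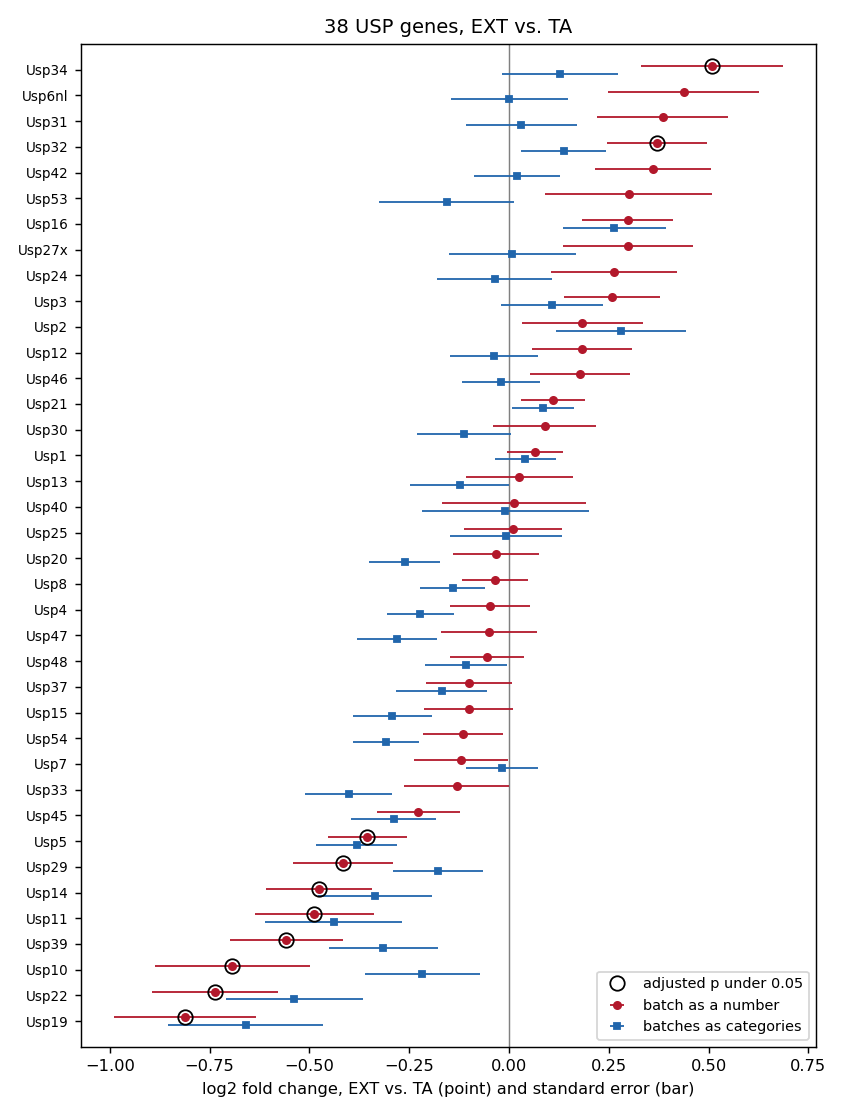
Log2 fold changes (points) and standard errors (bars) of the 38 USP genes in EXT vs. TA, with batch as a number (red circles) and with batches as categories (blue squares), and black rings at an adjusted p under 0.05. The 8 ringed members on the left and the 2 on the right keep their side of 0 in both fits, and Usp34 shrinks from 0.51 to 0.13.

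Usp22 lies on chromosome 11 (GRCm38, 61151785 to 61175055, minus strand). It ranged from 8.01 to 8.71 log2 cpm in TA mice (median 8.50), from 7.08 to 8.57 in FC mice (median 8.36) and from 6.72 to 8.71 in EXT mice (median 7.73). All but 1 of the 16 EXT mice were below the TA median, 11 were below every TA mouse, and mouse 23 of batch 3 was level with the highest TA mouse. The log2 fold change in EXT vs. TA was -0.74 (SE 0.16, 0.600 times the TA level, limma FDR-adjusted p = 0.013). The study's list of top genes gives a clearly smaller fall on the log2 scale for Usp22, and likewise for Usp19 below. The reason for that difference was not tested. Inside the batches, EXT minus TA was -0.61 in batch 1 (2 and 4 mice), -0.91 in batch 2 (3 and 5 mice) and -0.25 in batch 5 (5 and 7 mice). Coding batches as categories gave -0.54 (SE 0.17, unadjusted p = 0.0037, adjusted p = 0.143 in limma), and leaving out batches 3 and 4 gave -0.53 (SE 0.14, adjusted p = 0.0754 in limma). The 6 EXT mice of batches 3 and 4 averaged 7.36 ± 0.72 (SD) and the other 10 averaged 7.90 ± 0.46.

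Usp19, a deubiquitinase anchored in the membrane of the endoplasmic reticulum with a role in the disposal of misfolded proteins, lies on chromosome 9 (108490602 to 108502337, plus strand). It ranged from 5.31 to 6.16 in TA mice (median 5.62), from 4.46 to 5.91 in FC mice (median 5.24) and from 3.88 to 6.22 in EXT mice (median 4.64). Of the 16 EXT mice, 11 were below every TA mouse and 1, mouse 23, was above every TA mouse. Its log2 fold change in EXT vs. TA was -0.81 (SE 0.18, 0.570 times the TA level, limma FDR-adjusted p = 0.013). The difference was -1.004 in batch 1, -0.67 in batch 2 and -0.47 in batch 5, so the mean of Usp19 was lower in each batch that holds both groups. In batch 1 the 2 EXT mice were far apart, at 4.10 and 5.89, and 1 of them lay below the TA mice of that batch. Coding batches as categories gave -0.66 (SE 0.19, unadjusted p = 0.00194, adjusted p = 0.143 in limma), and leaving out batches 3 and 4 gave -0.66 (SE 0.17, adjusted p = 0.0754 in limma). With log2 library size added to the fit with batch as a number, Usp19 was at -0.52 (unadjusted p = 0.0294) and Usp22 at -0.51 (unadjusted p = 0.0194), both with an adjusted p of 0.70 in limma.

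**Figure D3:**
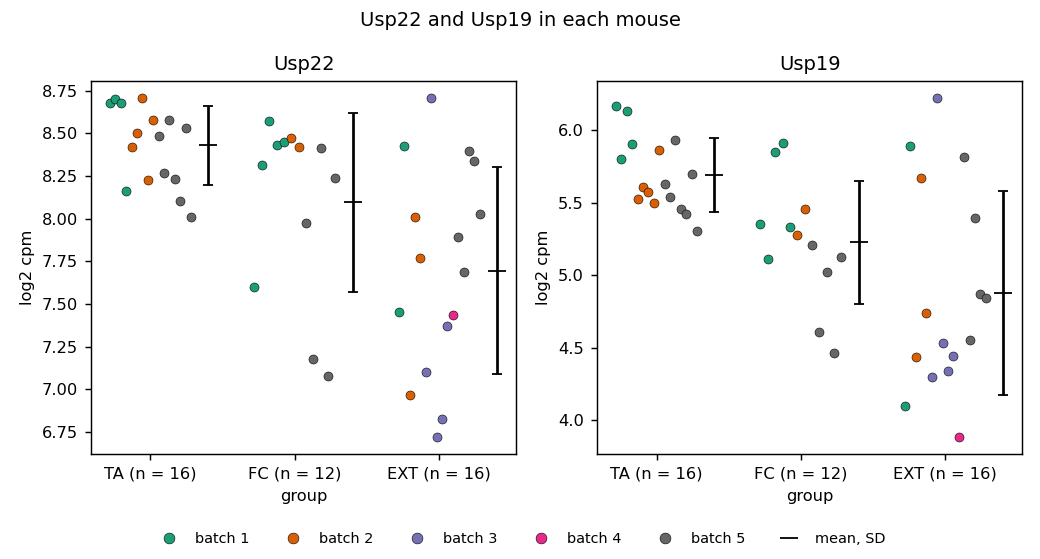
Usp22 and Usp19 in each mouse (points, log2 cpm) by group, coloured by batch, with the mean and SD beside each group. In both panels 11 of the 16 EXT mice lie below every TA mouse, and a single EXT mouse of batch 3 lies level with or above the highest TA mouse.

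The proteasome and free ubiquitin members included 2 of the 8 lower genes. Usp14 had medians of 7.85 in TA, 7.75 in FC and 7.29 in EXT mice, with ranges of 7.43 to 8.23, 6.92 to 8.06 and 6.68 to 8.32, and 10 EXT mice lay below every TA mouse. Its log2 fold change was -0.48 (SE 0.13, limma adjusted p = 0.0168), and -0.34 with batches as categories. Usp5 ranged from 7.46 to 8.47 in TA mice (median 7.70), from 6.32 to 8.33 in FC mice (median 7.68) and from 6.89 to 8.31 in EXT mice (median 7.42). The groups overlapped, with 9 EXT mice below every TA mouse. Its log2 fold change of -0.36 (SE 0.10, limma adjusted p = 0.0168) stayed at -0.38 with batches as categories (SE 0.10, unadjusted p = 0.000712), the smallest unadjusted p among the members in that fit. Usp13, a paralog of Usp5, was at 0.03 (SE 0.14).

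Among members with roles in RNA and stress granules, Usp39, a spliceosome protein that has lost its catalytic activity, ranged from 5.42 to 5.84 in TA mice (median 5.65), from 5.32 to 6.22 in FC mice (median 5.54) and from 3.86 to 5.79 in EXT mice (median 5.33). Its TA mice spanned a narrow range, and 10 EXT mice lay below it. The log2 fold change was -0.56 (SE 0.14, limma adjusted p = 0.0141) and -0.32 with batches as categories, and EXT minus TA inside batch 5 was -0.08. Usp10, which binds the stress granule protein G3bp1 and acts on p53 and on ribosomal proteins, had medians of 6.54 in TA, 6.55 in FC and 6.19 in EXT mice, with ranges of 6.05 to 6.97, 4.96 to 7.03 and 4.15 to 6.79. Its EXT mice overlapped in range but differed in mean by batch. Those of batches 3 and 4 averaged 5.06 ± 0.66 (SD, n = 6) and the others 6.32 ± 0.33 (n = 10), and the log2 fold change went from -0.69 (SE 0.19, limma adjusted p = 0.0169) to -0.22 (SE 0.14, unadjusted p = 0.141) with batches as categories.

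Usp11 and Usp29 completed the lower members. Usp11 (chromosome X, 20703906 to 20720539) had ranges of 7.42 to 8.43 in TA mice (median 7.90), 6.54 to 8.26 in FC mice (median 7.81) and 6.41 to 8.63 in EXT mice (median 7.33), and its fold change was -0.49 (SE 0.15, limma adjusted p = 0.0227), or -0.44 with batches as categories. Its paralogs Usp4 and Usp15 were at -0.05 and -0.10 and did not pass. With batches as categories both were lower at an unadjusted p under 0.05 in limma, as was Usp11. Usp29, which lies in the imprinted Peg3 region on chromosome 7 and is expressed from the paternal copy, ranged from 5.49 to 6.26 in TA mice (median 5.92), from 5.15 to 6.44 in FC mice (median 5.66) and from 4.62 to 6.08 in EXT mice (median 5.55). Its fold change was -0.42 (SE 0.12, limma adjusted p = 0.0209), with -0.18 when batches were categories and 0.06 inside batch 5. EXT and TA mice overlapped in each of these genes.

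The 2 higher members were Usp32 and Usp34. Usp32, an enzyme of the late endosome that acts on Rab7, ranged from 4.96 to 5.94 in TA mice (median 5.53), from 4.94 to 6.14 in FC mice (median 5.59) and from 5.24 to 6.497 in EXT mice (median 5.82), with 7 EXT mice above every TA mouse. Its log2 fold change was 0.37 (SE 0.12, limma adjusted p = 0.0341), with differences of -0.03, 0.63 and -0.11 in batches 1, 2 and 5. Usp34, a very large enzyme with a role in Wnt signalling through axin, ranged from 3.83 to 4.83 in TA mice (median 4.48), from 4.25 to 5.34 in FC mice (median 4.88) and from 3.68 to 6.24 in EXT mice (median 4.68), and had a fold change of 0.51 (SE 0.18, limma adjusted p = 0.0413). Its EXT mice of batches 3 and 4 averaged 5.54 ± 0.48 (SD) and the others 4.50 ± 0.40, and its differences by batch were -0.05, 0.45 and -0.004. In the fit with categories Usp32 was at 0.14 and Usp34 at 0.13, with unadjusted p of 0.207 and 0.385.

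**Figure D4:**
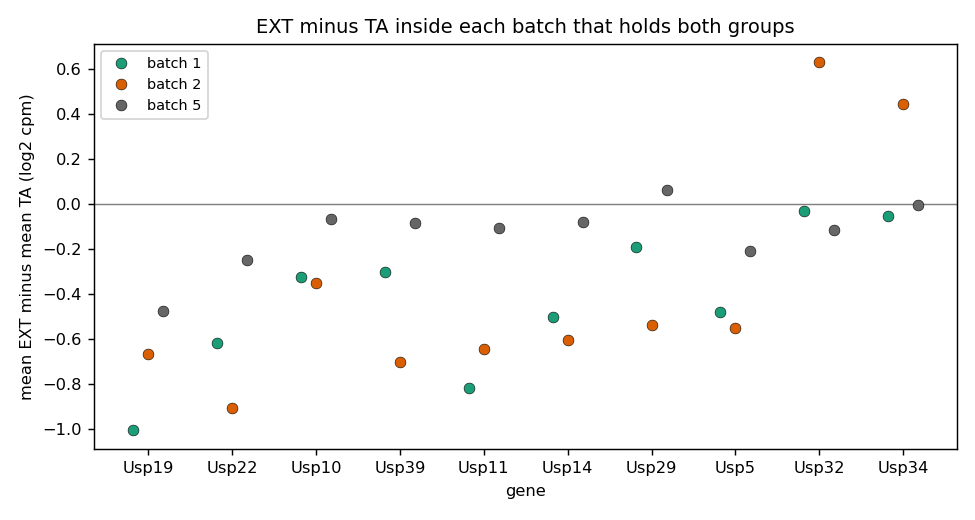
Mean EXT minus mean TA (log2 cpm) for the 10 called USP genes inside batches 1, 2 and 5, the batches that hold both groups. Among the 8 lower members Usp29 alone crosses 0, at 0.06 in batch 5, while Usp32 and Usp34 are above 0 in batch 2 and at or below 0 in the other two.

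Over the whole family, 17 of the 38 members had a lower mean in EXT than in TA mice in each of batches 1, 2 and 5, and 1 had a higher mean in each, while among all genes these shares were 19.3% and 19.2%. Batch by batch, 27 members were lower in batch 1 (2 EXT mice), 22 in batch 2 (3 EXT mice) and 32 in batch 5 (5 EXT mice). The share of all genes inside a single batch was not taken, so these counts cannot be read as particular to the family. The EXT mice of batches 3 and 4 had a higher mean than the other EXT mice for 29 members and a lower one for 9, compared with 50.2% higher among all genes. The 2 sets of EXT mice did not overlap for 1 member, Usp47, a relative of Usp7 with a role in base excision repair (6.61 ± 0.32 SD against 5.99 ± 0.21), and for 1.93% of all genes. Of the 28 members that were not called with batch as a number, 8 had an unadjusted p under 0.05 with batches as categories (28.6%, against 12.7% of the 6448 genes not called). Among them were Usp33, at -0.40 (SE 0.11, unadjusted p = 0.000911), and Usp54, at -0.31 (SE 0.08, unadjusted p = 0.000878), each with an adjusted p of 0.143 in limma. Usp16, which acts on histone H2A, was the member higher in that fit, at 0.26 (SE 0.13, unadjusted p = 0.0487).

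By role, the histone group of 5 (Usp3, Usp16, Usp21, Usp22 and Usp27x) held 1 lower gene and a median log2 fold change of 0.26, and its other 4 members were not called. The WDR48-dependent enzymes Usp1, Usp12 and Usp46 lay between 0.07 and 0.18, and 0 of 3 passed. Of the 5 endosome and trafficking members (Usp8, Usp20, Usp32, Usp33 and Usp6nl), Usp32 alone passed. With batches as categories Usp20 and Usp33 were lower at an unadjusted p under 0.05 in limma, and Usp32 did not reach that threshold. In the group tied to p53 and DNA damage (Usp2, Usp7, Usp10, Usp47 and Usp48) Usp10 alone passed, and Usp7, which acts on p53 and its ligase Mdm2, was at -0.12 (SE 0.12). With batches as categories Usp47 was lower at an unadjusted p under 0.05 in limma, and Usp10 did not reach that threshold. Usp30, a deubiquitinase of the outer mitochondrial membrane, was at 0.09 (SE 0.13). Over the 28 members that did not pass, log2 fold changes ran from -0.23 (Usp45, SE 0.10, limma adjusted p = 0.108) to 0.44 (Usp6nl, SE 0.19, limma adjusted p = 0.0884), and Usp16 came nearest to the threshold at 0.30 (SE 0.11, limma adjusted p = 0.0582). These are counts over small groups with no test of the groups themselves.

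Promoters of the members were read for the cAMP response element, the motif to which CREB binds, because the study examined CREB. Of 38 members, 30 had a promoter entry in the RefSeq table (GRCm38.p6, 250 bases before to 50 after the start site). The full element TGACGTCA was found on either strand in 1 of these 30, Usp29 (3.33%), and in 4.07% of the 6393 genes of the table that have an entry. The shorter TGACG, which the full element contains, was found on either strand in 12 members (40.0%) and in 39.3% of those genes. Of the members lower after EXT, Usp10, Usp11, Usp19 and Usp29 held a match to either motif. The other lower members, Usp22, Usp5, Usp39 and Usp14, had no promoter entry and were not read. The promoters of 3 members that were lower after EXT are shown as examples of a match, with the match in capitals. In Usp29 (chr7:6730333-6730632, plus strand) TGACGTCA begins at position 8, counted from 1 at the start site, in Usp19 (chr9:108490426-108490725, plus strand) the capitals read CGTCA, which is TGACG on the other strand, and begin at position 15, and in Usp11 (chrX:20703659-20703958, plus strand) TGACG begins at position -79, before the start site.
Usp29: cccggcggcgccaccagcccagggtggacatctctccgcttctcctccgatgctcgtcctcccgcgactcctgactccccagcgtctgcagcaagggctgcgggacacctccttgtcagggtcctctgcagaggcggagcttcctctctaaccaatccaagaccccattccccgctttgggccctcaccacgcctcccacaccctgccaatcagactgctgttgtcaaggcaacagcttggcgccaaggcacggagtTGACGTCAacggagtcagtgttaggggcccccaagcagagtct
Usp19: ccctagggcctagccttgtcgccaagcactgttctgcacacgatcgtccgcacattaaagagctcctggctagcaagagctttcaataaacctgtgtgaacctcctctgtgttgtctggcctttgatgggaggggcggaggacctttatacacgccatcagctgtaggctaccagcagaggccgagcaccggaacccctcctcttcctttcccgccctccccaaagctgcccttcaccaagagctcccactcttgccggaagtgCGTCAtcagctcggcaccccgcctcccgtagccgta
Usp11: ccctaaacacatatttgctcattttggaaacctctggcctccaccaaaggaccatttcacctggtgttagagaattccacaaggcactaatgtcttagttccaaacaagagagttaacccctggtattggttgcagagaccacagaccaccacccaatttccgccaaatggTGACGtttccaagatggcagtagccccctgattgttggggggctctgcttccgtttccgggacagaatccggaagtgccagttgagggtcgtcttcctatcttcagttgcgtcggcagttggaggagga
A match is a description of the letters in this window and not a measured site.

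FC vs. TA asks what conditioning without extinction was followed by. In limma 0 members were FDR-significant (0 of all genes), and at an unadjusted p under 0.05 there were 7 lower members (18.4%, against 6.18% of all genes) and 2 higher ones (5.26%, against 4.22%). The median log2 fold change of the members was -0.11, with 27 of 38 below 0, and that of all genes was 0.00. The fit with categories also gave 7 lower members (18.4%, against 8.20%) and 2 higher ones (5.26%, against 8.61%). The smallest p belonged to Usp19, at -0.50 (SE 0.10, unadjusted p = 3.43e-05, adjusted p = 0.141 in limma). As given above, its FC values ran from 4.46 to 5.91, and 7 of the 12 FC mice were below every TA mouse. FC minus TA for Usp19 was -0.49 in batch 1, -0.25 in batch 2 and -0.68 in batch 5. When batches were categories Usp19 was at -0.52 (SE 0.10, unadjusted p = 1.59e-05, adjusted p = 0.0666 in limma), the smallest unadjusted p of all genes in that fit. Without FC mouse 47 the count of members at an unadjusted p under 0.05 was 5 in place of 9 (all genes 603 in place of 853). Usp19 was then at -0.45 (unadjusted p = 0.000113, adjusted p = 0.308 in limma).

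Usp33, which acts on receptors and centrosome proteins, was next in FC vs. TA. It ranged from 5.60 to 6.65 in TA mice (median 5.97) and from 5.13 to 6.15 in FC mice (median 5.64), with 6 FC mice below every TA mouse, and its fold change was -0.41 (SE 0.11, unadjusted p = 0.00107, adjusted p = 0.303 in limma). FC minus TA for Usp33 was -0.84 in batch 1, -0.18 in batch 2 and -0.22 in batch 5. The fit with categories put Usp33 at -0.42 (SE 0.12), Usp34 at 0.34 (SE 0.11) and Usp22 at -0.34 (SE 0.13), with limma adjusted p of 0.107, 0.136 and 0.20. Usp34 was at 0.38 (SE 0.12, unadjusted p = 0.00251, adjusted p = 0.309 in limma), with 7 FC mice above every TA mouse and differences of 0.39, 0.57 and 0.19 in the 3 batches. Usp22 was at -0.35 (SE 0.13, unadjusted p = 0.0125, adjusted p = 0.387 in limma), and without FC mouse 47 at -0.25 (unadjusted p = 0.0414). FC minus TA for Usp22 was -0.28, -0.04 and -0.54 in batches 1, 2 and 5. FC vs. TA and EXT vs. TA share the 16 TA mice. Side by side, Usp19 was at -0.50 and -0.81, Usp22 at -0.35 and -0.74, Usp5 at -0.25 and -0.36, and Usp39 at -0.11 and -0.56.

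EXT vs. FC compares the mice that were extinguished with those that were conditioned alone. No member was FDR-significant in limma (0 of 38, and 0 of all genes), while 3 were lower (7.89%, against 8.35% of all genes) and 6 higher (15.8%, against 11%) at an unadjusted p under 0.05. The 3 smallest p were those of Usp7, at -0.35 (SE 0.13, unadjusted p = 0.0105), Usp39, at -0.46 (SE 0.17, p = 0.0117), and Usp27x, an X-linked histone deubiquitinase, at 0.44 (SE 0.19, p = 0.0238), with limma adjusted p of 0.219, 0.219 and 0.227. Usp7 ranged from 5.66 to 7.01 in FC mice (median 6.01) and from 5.25 to 6.85 in EXT mice (median 5.66), and Usp27x from 3.12 to 4.38 (median 3.79) and from 3.06 to 5.32 (median 4.11). In the fit with categories 1 member was higher at an unadjusted p under 0.05, Usp2 (2.63%, against 2.22% of all genes), 0 were lower (against 1.97%), and these 3 genes had unadjusted p of 0.139, 0.292 and 0.531. Usp22 was at -0.39 (SE 0.22, adjusted p = 0.308 in limma) and Usp19 at -0.29 (SE 0.22, adjusted p = 0.436 in limma), and neither passed. For Usp22 the unadjusted p was 0.0828, and it was 0.0323 without EXT mouse 23 and 0.0275 without FC mouse 47. The count of 9 members was 5 without mouse 47, while that of all genes went from 1587 to 1486.

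Sexes were taken from the labels. In males (10 EXT and 10 TA mice) 1 member, Usp19, was FDR-significant in EXT vs. TA (2.63%, against 0.0731% of all genes), at -0.90 (SE 0.18, adjusted p = 0.0478 in limma). Male Usp19 ran from 5.31 to 5.93 in TA mice (median 5.59) and from 3.88 to 5.67 in EXT mice (median 4.64), and 8 of 10 EXT males were below every TA male. When batches were categories it was at -0.57 (SE 0.15, unadjusted p = 0.00118, adjusted p = 0.351 in limma). The call was also lost when each sample was centred on its median (adjusted p = 0.0537), with quantile normalisation (adjusted p = 0.0519), without batches 3 and 4 (adjusted p = 0.418), with library size (adjusted p = 0.839) and with categories and library size (adjusted p = 0.437), all in limma. At an unadjusted p under 0.05, males had 8 lower members (21.1%, against 15.6% of all genes) and 4 higher (10.5%, against 13.4%). In females (6 and 6 mice) 0 members were FDR-significant in limma, with 4 lower (10.5%, against 5.99%) and 3 higher (7.89%, against 8.90%). With categories there were 9 lower (23.7%, against 7.51%) and 0 higher (against 4.97%) in males, and 7 lower (18.4%, against 5.62%) and 2 higher (5.26%, against 8.19%) in females. Usp19 was not among the members at that threshold in either female fit. Female Usp19 ran from 5.52 to 6.16 in TA mice (median 5.72) and from 4.10 to 6.22 in EXT mice (median 5.13). Of the 6 EXT females, 3 were below every TA female and 1 was above every TA female. With batch as a number, the count of 7 members in females (both directions) was 15 without mouse 23, an EXT female. That of all genes went from 1221 to 1923. Usp22 was at -0.75 (SE 0.20) in males and -0.74 (SE 0.26) in females, and at -0.34 (SE 0.13) and -0.82 (SE 0.27) with batches as categories.

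Usp2, an enzyme known from the circadian clock that also acts on Mdm2, had the smallest p among the members for a difference between the sexes in EXT vs. TA. In females it ran from 5.03 to 6.28 in TA mice (median 5.66) and from 6.04 to 6.89 in EXT mice (median 6.25), and 3 of 6 EXT females were above every TA female. In males it ran from 5.84 to 6.81 in TA mice (median 6.14) and from 5.71 to 6.92 in EXT mice (median 6.04). The female fold change was 0.71 (SE 0.19, unadjusted p = 0.00225, adjusted p = 0.33 in limma), or 0.90 (SE 0.15, adjusted p = 0.166 in limma) with batches as categories. The interaction of sex and EXT was 0.84 (SE 0.28, unadjusted p = 0.00496, adjusted p = 0.998 in limma), higher in females. It was the only one of 38 members at an unadjusted p under 0.05 in the interaction (2.63% higher, against 1.90% of all genes, and 0 members lower, against 2.23%), and it did not pass the adjustment. Coded as categories, batches gave an interaction of 0.78 (SE 0.27, unadjusted p = 0.00635, adjusted p = 0.706 in limma). EXT minus TA for Usp2 over both sexes was 0.65, 0.70 and -0.16 in batches 1, 2 and 5. Of the TA females, 3 of 6 came from batch 1, and these 3 were the lowest of the TA females.

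**Figure D5:**
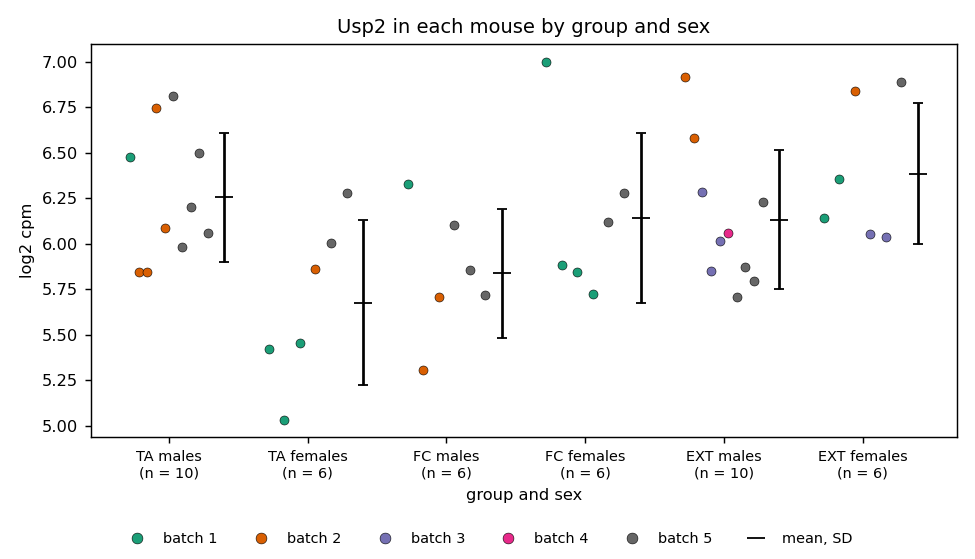
Usp2 in each mouse (points, log2 cpm) by group and sex, coloured by batch, with the mean and SD beside each set. TA females have the lowest median of the 6 sets, 5.66, and the 3 lowest TA females are of batch 1.

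Females vs. males over all 44 mice, with group in the fit, gave 0 FDR-significant members in limma, and 1 lower (2.63%, against 7.19% of all genes) and 2 higher in females (5.26%, against 5.06%) at an unadjusted p under 0.05. Lower in females was Usp46, a WDR48-dependent enzyme known for mouse behaviour and glutamate receptors, at -0.31 (SE 0.11, unadjusted p = 0.00629, adjusted p = 0.317 in limma), which was at -0.13 (unadjusted p = 0.161) with batches as categories. The next in that direction were Usp27x at -0.20 and Usp16 at -0.11, with unadjusted p of 0.176 and 0.318. In the other direction were Usp8, an enzyme of endosomal sorting, at 0.18 (SE 0.07, unadjusted p = 0.0195), Usp5 at 0.24 (SE 0.10, unadjusted p = 0.0266) and Usp15 at 0.20 (SE 0.10, unadjusted p = 0.0618). When batches were categories these 5 genes were at -0.09, -0.11, 0.18, 0.15 and 0.16. Of these 5, Usp8 alone kept an unadjusted p under 0.05 in limma (0.0213). Over the whole family, 4 members were at that threshold in the fit with categories, 1 lower and 3 higher in females. Among all 8203 genes, 171 were lower and 168 higher. In that fit 0 members were FDR-significant (0 of all genes). Usp46 ran from 6.25 to 7.39 in TA females and 6.36 to 7.52 in TA males, from 6.46 to 7.04 in FC females and 6.98 to 7.61 in FC males, and from 6.61 to 7.74 in EXT females and 6.73 to 7.87 in EXT males, so the sexes overlapped in each group. In batch 1, which holds 4 of the 6 FC females and 1 of the 6 FC males, Usp46 averaged 6.54 in TA, 6.75 in FC and 6.63 in EXT mice, lower than in the other batches of the same group.

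The other deubiquitinases and the proteins that bind USPs were set beside the family in EXT vs. TA. Of 38 genes listed as other deubiquitinases or their relatives, 32 are in the table. The list was made by symbol, and not each gene in it need be an active deubiquitinase or lie outside the USP family. At an FDR-adjusted p under 0.05 in limma 2 were lower (Uchl1 and Vcpip1) and 5 higher (Yod1, Brcc3, Mysm1, Eif3f and Fam63b), against 11% lower and 10.4% higher among all genes. Log2 fold changes of the 32 genes had a median of 0.11 against 0.01 for all genes. Uchl1, an abundant neuronal enzyme, was at -0.35 (SE 0.12) and Mysm1, which acts on histone H2A, at 0.51 (SE 0.15). Of 36 partner proteins, 31 are in the table, and 8 were lower and 3 higher, against the same shares, with a median of -0.12. Ubb, which encodes ubiquitin, was among the lower ones at -0.81 (SE 0.21, limma adjusted p = 0.0148), while Rps27a, which encodes ubiquitin joined to a ribosomal protein, was at 0.56 (SE 0.20, limma adjusted p = 0.0418). Among the SAGA partners of Usp22, Atxn7l3, the adaptor that activates it, was higher at 0.67 (SE 0.17, limma adjusted p = 0.0143), Taf10 was higher at 0.44 (SE 0.12), and Tada1 was lower at -0.29 (SE 0.08). G3bp1 and G3bp2, which Usp10 binds or lies beside in stress granules, were lower at -0.35 (SE 0.11) and -0.65 (SE 0.17). These values are all from the fit with batch as a number. The partner genes named were picked after their values were seen, and most partners have no value here. When batches were categories 0 genes of either list were FDR-significant in limma, with 1 lower and 3 higher of the other deubiquitinases and 10 lower and 4 higher of the partners at an unadjusted p under 0.05 (all genes 11% lower and 10.2% higher).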

How the data were processed

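TRAP-seq libraries of 44 mice were analysed, with group, sex and batch from the sample labels. The authors used Trimmomatic 0.36 for trimming, STAR with GRCm38 for alignment, and edgeR for filtering the genes by a minimum cpm in all samples, and they dropped outlying samples. What the authors deposited is log2 cpm in the form that voom of limma gives. Whole reads were solved back for 360932 of 360932 values (tolerance 0.05 reads), with 886 reads for the median gene of the median sample.

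Groups were compared on the deposited log2 values in limma 3.58.1 (lmFit, eBayes; R 4.3.3), with batch number as a numeric covariate and sex as a factor. Tests were two-sided and p-values were adjusted over 8203 genes by Benjamini-Hochberg, with a threshold of 0.05. Because batches as categories ended the calls in EXT vs. TA, values of that fit are given beside the counts over all members and most of the members named. For the groups by role they are given only in part. They are not given for single genes of the lists of partners and of other deubiquitinases. Exonic lengths and positions came from the GENCODE annotation of GRCm38. The read recovery and the fits were tested on simulated data. Python 3.11.15 with numpy 2.4.6, pandas 2.3.3, scipy 1.17.1 and matplotlib 3.10.9 was also used.

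The alternatives were batches as categories, a fit with no term for batch, a fit without the mice of batches 3 and 4, log2 library size as a covariate, median centring, quantile normalisation, an offset of 5 reads, leaving out genes with a mean log2 value under 5, voom weights, array weights and all 3 groups in 1 fit.

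The members and the lists of other deubiquitinases, partner proteins and markers were chosen with earlier results of these data known, and a list is described by counts and its median. Named in full are Usp22, Usp19, the other members called in EXT vs. TA, the 3 with the smallest p in FC vs. TA and in EXT vs. FC, the 5 highest and 3 lowest by length-scaled level, the 3 with the smallest p in each direction between sexes, and the X-linked Usp11 and Usp27x. Usp54, Usp47, Usp2 and Usp16 were otherwise named after their values were seen, as were the partner genes. Each mouse is a replicate, and errors between mice include counting error. Animals of batch 3 have sex labels out of the order of their numbers, so results by sex rest on the labels. A result for 1 partner gene is not reported here.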

Additional observations from a re-analysis of the deposited data

Results flagged for a closer look

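In FC males, mouse 47 lay far from the others for Usp22, at 7.08 log2 cpm, while the other 5 FC males lay between 8.24 and 8.47. The gap took 0.834 of the range of the 6 mice. This was the only one of 18 sets of mice (Usp22, Usp19 and Usp2 in 3 groups and 2 sexes) with a gap past Dixon's critical value, and chance gives such a gap in about 1 set in 20. Mouse 47 is of batch 5 and had the smallest effective library of the FC mice, 13431032 reads, and it was also the lowest FC mouse for Usp19, Usp5 and Usp10. Without it, Usp22 in FC vs. TA was at -0.25 in place of -0.35 on the log2 scale.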

How the results depend on the processing

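For EXT vs. TA, the count of 10 FDR-significant USP genes went to 0 with batches as categories, without batches 3 and 4, with log2 library size as a covariate, with array weights, and with batches as categories and log2 library size together, and stayed between 10 and 11 in the other 8 settings. The 10 genes kept their direction in every setting in which they were fitted. The counts of 7 other deubiquitinases and 11 partner proteins likewise went to 0 under those 5 settings. Of all 8203 genes, 1755 were FDR-significant with batch as a number, and 2, 3, 0, 5 and 0 in those settings, in the order given above. The remaining counts are at an unadjusted p under 0.05, with the count over all 8203 genes in the same setting in brackets. FC vs. TA went from 9 (853) to 5 without a batch term (552), with log2 library size (689), with array weights (978) and without mouse 47 (603). EXT vs. FC went from 9 (1587) to 1 with batches as categories (344), without batches 3 and 4 (362) and with library size (396). It went to 2 with array weights (912), to 3 with categories and library size (376), and to 14 with all 3 groups fitted together (2143). It went to 5 with genes under a mean of 5 left out (1239 of 5731 genes) or without mouse 47 (1486). EXT vs. TA in males went from 12 (2382) to 1 with library size (456) and to 4 with categories and library size (913). In females it went from 7 (1221) to 2 with library size (478), to 11 without batches 3 and 4 (1205) and to 15 without mouse 23 (1923). The interaction went from 1 (339) to 4 without batches 3 and 4 (742) and to 5 with array weights (1190). Females vs. males went from 3 (1005) to 5 without a batch term (2355) and to 7 with array weights (2185). The causes were not tested. Leaving out mouse 47 or mouse 23, and joining categories with library size, were chosen after seeing the data. No paired analysis was possible because the labels give each animal its own number, which is shared by no other group. Library sizes overlapped between groups but were lower in EXT mice (median 15412341) than in TA mice (18015590).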

Other observations

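Members with higher levels per exonic length tended to have the lower fold changes in EXT vs. TA. Among the 19 members in the upper part of the order by level, 13 were below 0, with a median log2 fold change of -0.05, and among the 19 in the lower part 6 were below 0, with a median of 0.18. Spearman's rho between level and log2 fold change was -0.43 over the 38 members and -0.10 over the 8005 genes with a single gene model, with levels from all 44 libraries and fold changes from 32 of them. With batches as categories 15 members of the upper part were below 0 (median -0.22) and 12 of the lower part (median -0.04), and rho was -0.26 and 0.16. These are correlations across genes, which are not independent replicates.

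Mouse 23, an EXT female of batch 3, was the highest EXT mouse for Usp22, Usp19, Usp14, Usp5, Usp11 and Usp33, and its effective library of 17805609 reads was the largest of the EXT mice. Without it the fold changes in EXT vs. TA were -0.80 for Usp22 and -0.89 for Usp19, with limma adjusted p of 0.00278 for both.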
